A study of Mus musculus with 8 samples.

Results

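The set described here is a module of 42 genes that encode the enzymes of glycolysis, lactate production and export, pyruvate dehydrogenase with its kinases, and the pentose phosphate pathway. The rule lists the genes by name and uses no measured value, but the set was proposed with earlier results of these data known. All 42 are listed among the 26608 genes of the deposited count tables, 39 were counted in 1 library or more, and 3 (Gapdh, Eno1 and Pdk4) had none in any. Over all listed genes, 15162 had a count and 11446 had none.

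FVB mouse embryos were taken at 8.5 days, and neural tube was cut from cryosections by laser next to closure site 1, where the neural folds begin to fuse. Open neural tube lay just in front of that site and closed neural tube just behind it. The dams were diabetic or normal. The labels name the state of the dam and not how diabetes was induced, its duration, the dams' ages, or how many embryos or litters went into a library. Each of the 4 groups (normal open, normal closed, diabetic open, diabetic closed) has 2 libraries, numbered 09 to 16 after the sample titles, and each library was made from 7 ng of total RNA. Nothing in the labels says that libraries of a group came from separate litters, so every p-value measures only the spread between these libraries.

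Glycolysis splits glucose into pyruvate and yields ATP and NADH. Pyruvate can be reduced to lactate by lactate dehydrogenase, which regenerates NAD, and lactate leaves the cell through monocarboxylate transporters, or it can enter mitochondria through the pyruvate dehydrogenase complex, which pyruvate dehydrogenase kinases switch off. The pentose phosphate pathway branches off at glucose 6-phosphate and yields NADPH and ribose for nucleotides. Embryos at the stage of neural tube closure are known for high glucose use and high lactate output, and embryos of diabetic mothers are exposed to raised glucose.

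The measurement was SAGE, which counts 1 short tag per transcript, cut at the last site of an anchoring enzyme before the poly(A) tail. Levels are given in CPM, the tags of a gene for every 1000000 tags of its library. Because each transcript gives 1 tag, a level is not divided by gene length, and levels can be set side by side between genes only where the tag identifies the gene. SAGE kits of this kind commonly anchor at CATG, although the labels do not name the enzyme. The expected tag of each gene, CATG and the 22 bases after it, was read from GENCODE M21 transcripts (assembly GRCm38, which is not the mm9 build of the counts, so no coordinates are given) for 40 of the 42 genes. The tag began in the 3′ UTR for 35 of them and in the coding sequence for 5. The tags below are those on which the results turn, written 5′ to 3′ with the CATG anchor in capitals. They belong to the most abundant genes, to the genes with the clearest differences between groups, and to Gapdh as a gene listed at 0.
Ldha: CATGccaaataaaaccttgaacagtg
Pgam1: CATGttccagctgcttgaccctaccg
Tpi1: CATGtaagggaaataaacacctgggc
Slc16a3: CATGttatggagactcccaaccataa
Slc16a1: CATGgcctctttataattgttagatg
Eno3: CATGgacctcattcctctctggggtg
Ldhb: CATGtgatatgagctcacagatcaaa
Gapdh: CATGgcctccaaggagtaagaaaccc
Pdhb: CATGgtatgggcactgcccaggttta

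Whether these bases occur elsewhere among annotated transcripts, on either strand, differed between the genes. The tags of Ldha, Pgam1, Tpi1, Slc16a3, Slc16a1, Eno3 and Ldhb were found in no other gene. The Gapdh tag, which begins in the coding sequence, also occurs in 7 other genes, of which 4 are annotated as pseudogenes, and the Pdhb tag occurs in Gm6123. Eno1 shares its tag with its near-identical copy Eno1b, and both Gapdh and Eno1 were listed at 0 in all 8 libraries. Over the 65405280 counts of the 8 libraries together, a count of 0 allows a level of up to 0.0459 CPM, for counting error only. Both are known as abundant housekeeping genes, so these values are given only as listings at 0.

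Sharing a tag went with a listing at 0 across the whole table. Of 2690 protein-coding genes whose tag occurs in at least 1 other gene, 51.0% had no count in any library, against 31.2% of 15834 genes whose tag occurs in no other gene, and 64.4% of the 985 genes whose tag occurs in 5 others or more. A gene with no CATG in its transcript had no count in 92.9% of 85 cases. Within the set, 6 of 40 genes had a shared tag. Rpe, which interconverts pentose 5-phosphates, shares its tag with Kansl1l and still had a mean of 205 CPM, Pfkp shares its tag with Pitrm1 at a mean of 57.6 CPM, and Aldoc, whose last CATG lies 11 bases before the transcript's end so that the tag runs into the poly(A) tail, matched 48 other genes and had a mean of 7.87 CPM. Pdk4, which has a tag of its own, was also at 0. How the submitters treated tags that match several genes is not given in the sources used here, and its part in these values was not tested.

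Library totals ran from 5041586 to 16655583 counts, so that 100 CPM stands for at least 504 counts. Replicate libraries differed beyond sampling noise (chi-square per gene of 29.6 to 119 across the 4 pairs), and none was a copy of another. Diabetic open library 13 stood apart. Its summed level of 8 neural progenitor markers was 1744 CPM, against 2523 to 3442 CPM in the other 7 libraries. Lin28a made up most of each sum, at 1566 CPM in library 13 and 1613 to 2424 CPM elsewhere. Sox2 was at 30.9 CPM in library 13, against 287 to 550 CPM elsewhere. Pax6 was at 4.92 against 29.6 to 62.9 CPM, and Hes5 at 13.9 against 89.6 to 158 CPM. Sox1 and Nes were also lowest there, while Sox3 and Cdh2 lay within the range of the other libraries. The endothelial markers of library 13 summed to 341 CPM (40.6 to 140 CPM elsewhere) and its mesoderm and mesenchyme markers to 1566 CPM (152 to 843 CPM elsewhere). Of the latter, Pdgfra (475 CPM), Twist1 (316 CPM), Foxc2 (180 CPM) and Foxc1 (146 CPM) were highest in library 13. Meox1, Tcf15, Aldh1a2 and Tbx6 were highest in library 15 instead. The heart markers of library 13 summed to 108 CPM (0 to 6.0 CPM elsewhere), of which Gata4 alone gave 87.7 CPM. Nkx2-5, Tnnt2, Myh6 and Myh7 of the heart list were at 0 in all libraries. Markers of primitive blood summed to 925 CPM in library 13 and 1010 CPM in library 14, to 210 CPM in library 16 and to at most 63.3 CPM elsewhere, with Hbb-y at 0 throughout. Nearly all of this was Hba-x, at 891 CPM in library 13 and 994 CPM in library 14. In such bulk tissue, fewer cells of a type and less RNA per cell cannot be told apart.

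The 42 genes together held between 1.28% and 2.63% of a library's counts (each 95% Wilson interval no wider than 0.0127 percentage points to either side, for counting error only). The share was 2.44% and 2.15% in normal open libraries 09 and 10, 2.43% and 1.94% in normal closed 11 and 12, 1.28% and 2.63% in diabetic open 13 and 14, and 2.13% and 2.45% in diabetic closed 15 and 16. The lowest and the highest share were thus the 2 libraries of the same group. Ldha alone held 47.7% to 63.0% of the module's counts, and Ldha, Pgam1 and Tpi1 together 75.6% to 84.95%.

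**Figure D1:**
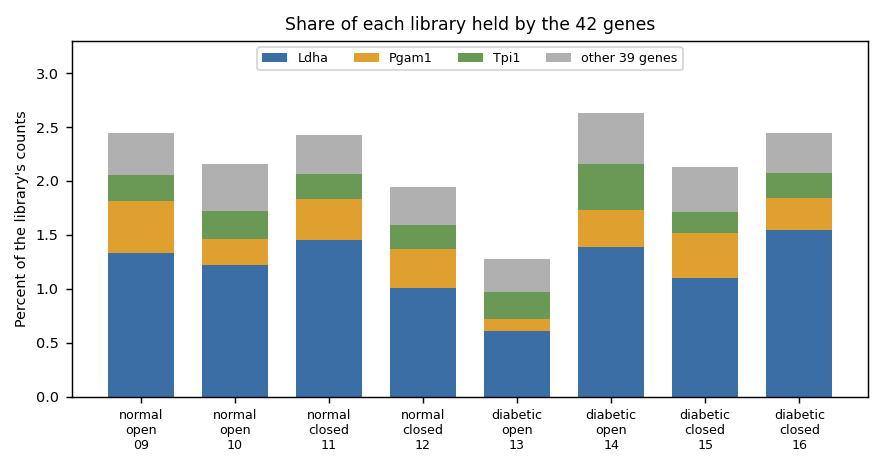
Percent of each library's counts (vertical axis) held by Ldha, Pgam1, Tpi1 and the other 39 genes (stacked bars), for the 8 libraries by group and number. The bars sit between 1.28% in library 13 and 2.63% in library 14, both diabetic open, and Ldha is the largest block in each.

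In the sentences that follow, the 2 values of a group are in the order of the library numbers, which has no other meaning. Glucose is first trapped in the cell by hexokinases. Hk2, the inducible hexokinase, gave 156 and 190.0 CPM in normal open, 142 and 95.5 in normal closed, 93.7 and 128 in diabetic open, and 95.8 and 124 in diabetic closed tissue. Hk1, the hexokinase of most adult tissues, was far lower with a mean of 7.14 CPM (0.353 to 12.9). Gpi1, which turns glucose 6-phosphate into fructose 6-phosphate, gave 542 and 705 CPM in normal open, 456 and 326 in normal closed, 273 and 491 in diabetic open, and 376 and 344 in diabetic closed tissue. For both Hk2 and Gpi1 the highest value was in normal open library 10 and the lowest in diabetic open library 13, and the groups overlapped.

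Phosphofructokinase commits the sugar to glycolysis and is built from liver, muscle and platelet subunits. Pfkl, the liver subunit, was the most abundant and gave 229 and 385 CPM in normal open, 191 and 326 in normal closed, 239.8 and 509 in diabetic open, and 246 and 323 in diabetic closed tissue. It made up 69.5% to 86.5% of the counts of the family. Pfkm, the muscle subunit, gave 5.63 and 14.8 CPM in normal open, 22.3 and 46.1 in normal closed, 36.7 and 22.4 in diabetic open, and 40.3 and 45.9 in diabetic closed tissue, with its 2 lowest values in the normal open libraries. Pfkp, the platelet subunit, had a mean of 57.6 CPM (34.4 to 95.9).

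The Pfkfb enzymes make and break fructose 2,6-bisphosphate, the main activator of phosphofructokinase. Pfkfb3, the form with the strongest kinase activity, led the family with a mean of 42.2 CPM (13.3 to 113). The other members were low: Pfkfb2 had a mean of 6.25 CPM (0 to 17.9), Pfkfb4 a mean of 3.61 CPM (1.98 to 5.18) and Pfkfb1 a mean of 1.82 CPM (0 to 7.48).

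The later steps of glycolysis held the abundant enzymes. Aldoa, the main aldolase outside liver and brain, gave 665 and 551 CPM in normal open, 627 and 605 in normal closed, 164 and 515 in diabetic open, and 889 and 533 in diabetic closed tissue. Library 13 was the low one by a wide margin, and the other 7 lay between 515 and 889 CPM. Tpi1, which interconverts the 2 triose phosphates, gave 2423 and 2618 CPM in normal open, 2298 and 2182 in normal closed, 2474 and 4271 in diabetic open, and 1959 and 2306 in diabetic closed tissue. Here library 14 was the high one and the other 7 lay between 1959 and 2618 CPM. Pgam1, the phosphoglycerate mutase of most tissues, gave 4799.9 and 2401 CPM in normal open, 3756 and 3610.4 in normal closed, 1099.7 and 3437 in diabetic open, and 4133 and 2988 in diabetic closed tissue. Its lowest value was again in library 13 and its highest in library 09.

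Among the other enzymes of this stretch, Pgk1, which makes ATP from 1,3-bisphosphoglycerate, was listed at a mean of 10.6 CPM (0.176 to 23.2). Its lowest value, in library 10, stood for 1 count. Bpgm, which makes the haemoglobin ligand 2,3-bisphosphoglycerate in red cells, had a mean of 6.98 CPM (1.67 to 22.3), with the highest value in library 13 and 2.63 CPM in library 14. Its relation to the blood markers was not tested. Eno3, the muscle enolase, gave 17.2 and 11.1 CPM in normal open, 13 and 23.5 in normal closed, 94.9 and 50.3 in diabetic open, and 25.8 and 34 in diabetic closed tissue, and the neuronal form Eno2 had a mean of 5.58 CPM (0 to 12.9). Pkm2, the pyruvate kinase gene as the tables name it, gave 337 and 539 CPM in normal open, 319 and 367 in normal closed, 460.1 and 819 in diabetic open, and 579 and 426 in diabetic closed tissue, with library 14 highest.

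Lactate dehydrogenase was represented almost wholly by Ldha, the subunit that favours lactate production. Ldha gave 13305 and 12176 CPM in normal open, 14568 and 10086 in normal closed, 6085 and 13883 in diabetic open, and 11018 and 15414 in diabetic closed tissue, and among all genes of a library its rank ran from 1 to 10. Without library 13 its values ran from 10086 to 15414 CPM. Ldhb, the subunit typical of oxidative tissue, gave 0 and 0 CPM in normal open, 10.7 and 10.8 in normal closed, 0 and 0 in diabetic open, and 4.56 and 4.05 in diabetic closed tissue. It had counts in all 4 closed libraries and in none of the 4 open ones.

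Lactate is exported by 2 transporters of the set. Slc16a1, which encodes the widely used carrier MCT1, gave 274 and 186 CPM in normal open, 289.7 and 261 in normal closed, 265 and 239 in diabetic open, and 285 and 282 in diabetic closed tissue, a steady profile. Slc16a3, which encodes MCT4, the carrier of strongly glycolytic cells, gave 25 and 117 CPM in normal open, 132 and 53 in normal closed, 213 and 303 in diabetic open, and 230.3 and 185 in diabetic closed tissue. All 4 diabetic libraries were above all 4 normal ones, and the values within the normal group spread widely.

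Pyruvate dehydrogenase feeds pyruvate into the citric acid cycle. Pdha1, its catalytic alpha subunit, gave 266 and 333 CPM in normal open, 240.2 and 203 in normal closed, 223 and 261 in diabetic open, and 246 and 186 in diabetic closed tissue. Dld, the dihydrolipoamide dehydrogenase that this complex shares with others, gave 48.2 and 30.7 CPM in normal open, 32.9 and 53.8 in normal closed, 60.3 and 122 in diabetic open, and 62.1 and 56.2 in diabetic closed tissue, and library 14, at 122 CPM, stood well above the other diabetic libraries, which reached at most 62.1 CPM. The beta subunit Pdhb gave 0 and 0 CPM in normal open, 1.25 and 1.63 in normal closed, 0.961 and 0 in diabetic open, and 2.18 and 2.23 in diabetic closed tissue, a level of 0 to 16 counts. Dlat, the acetyltransferase of the complex, had a mean of 16.6 CPM (5.49 to 21.4).

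Of the kinases that inactivate the complex, Pdk1, a known target of hypoxia-inducible factor, gave 39.4 and 60.2 CPM in normal open, 45.8 and 43.2 in normal closed, 30.9 and 34 in diabetic open, and 37.9 and 38.5 in diabetic closed tissue. Its 4 diabetic values lay just below its 4 normal ones, 38.5 CPM at most against 39.4 CPM at least. Pdk3 had a mean of 25.4 CPM (3.0 to 42.3), Pdk2 a mean of 2.72 CPM (0 to 10.4), and Pdk4, the form raised by fasting in adult tissue, was listed at 0.

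Of the pentose phosphate genes, Pgls and Tkt were among the steadiest of the set. Pgls, the lactonase of the oxidative branch, gave 301 and 296 CPM in normal open, 207 and 320.1 in normal closed, 261 and 281 in diabetic open, and 274 and 319.5 in diabetic closed tissue. G6pdx, the enzyme that opens the branch, had a mean of 10.6 CPM (3.55 to 14.8), and Pgd, the other NADPH-producing enzyme, a mean of 2.3 CPM (0 to 6.6). Tkt, the transketolase of the non-oxidative branch, gave 258 and 268 CPM in normal open, 252 and 289 in normal closed, 209 and 262 in diabetic open, and 212 and 214 in diabetic closed tissue. Its 8 values stayed within 209 to 289 CPM.

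Taldo1, the transaldolase that works beside Tkt, gave 149.8 and 225 CPM in normal open, 122 and 135 in normal closed, 106 and 142 in diabetic open, and 131 and 114 in diabetic closed tissue, with library 10 highest. Rpe, whose tag is shared, gave 219.7 and 216 CPM in normal open, 259.6 and 144 in normal closed, 170.2 and 200.1 in diabetic open, and 204 and 229 in diabetic closed tissue. Rpia, the ribose 5-phosphate isomerase, had counts in 2 libraries only, 9 in library 13 and 2 in library 16, and was not tested. Phosphoglucomutases link glycogen to glucose 6-phosphate, and the tables list Pgm2 at a mean of 60.1 CPM (28.8 to 83.2) and Pgm1 at 0.0987 and 0 CPM in normal open, 2.49 and 0 in normal closed, 0 and 0 in diabetic open, and 3.17 and 2.93 in diabetic closed tissue. RefSeq (GRCm38.p6) lists these symbols as each other's synonyms, so which of the 2 enzymes a row stands for is uncertain.

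**Figure D2:**
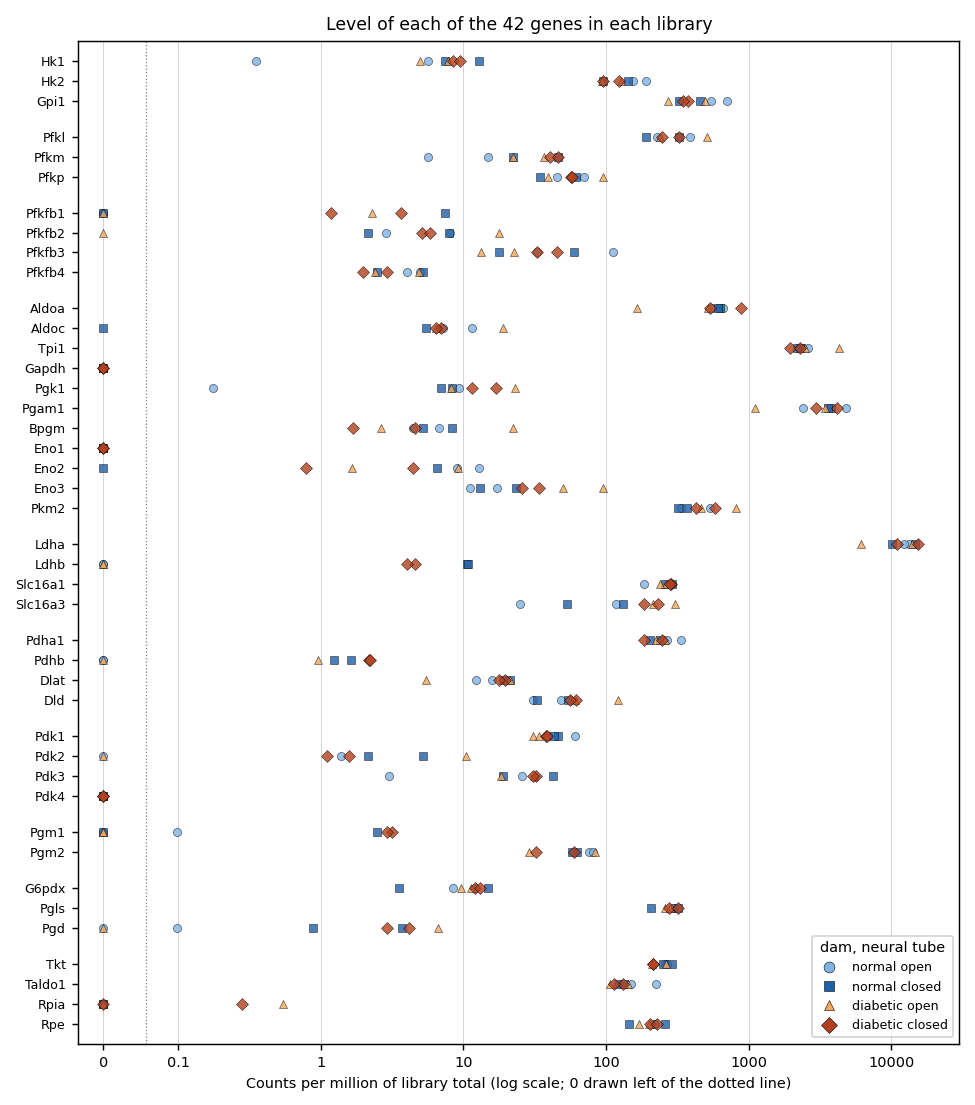
Level of each of the 42 genes (rows, in pathway order with gaps between roles) in each of the 8 libraries, in CPM on a log axis with 0 drawn at the left, by group (colour and shape). Ldha, Pgam1 and Tpi1 lie above 1000 CPM in every library, Ldhb has its 4 open libraries at 0, and Gapdh, Eno1 and Pdk4 are at 0 throughout.

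The spread between libraries was judged over the 15 genes with a mean of at least 100 CPM. Their coefficient of variation over the 8 libraries ran from 12.2% for Tkt, 13.04% for Pgls and 13.1% for Slc16a1 to 59.4% for Slc16a3. The median was 26.5%, against 21.3% over all 1816 genes at that level. Slc16a3 varied more than 98.2% of those genes and Tkt more than 9.14%. Of the 15 genes, 7 had their lowest value in library 13, where 14.8% of the 1816 genes had theirs, while 4 had their highest in library 14 (11.9% of all) and 4 in library 10 (17.1% of all).

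The first question of the design is whether the enzymes differ with the state of the dam. No gene of the set passed the test: of the 38 genes with enough counts, 0 had an adjusted p below 0.05 in edgeR's quasi-likelihood test with region as a covariate (background 0.0% of 11779 genes, smallest adjusted p in the set 0.999). DESeq2 called 0.314% of all genes and none of the set. At an unadjusted p below 0.05 the set had 4 of 38 genes, Slc16a3, Eno3, Dld and Pkm2, all higher with diabetic dams, against 4.55% of all genes tested. Slc16a3, Eno3 and Dld had all 4 diabetic libraries above all 4 normal ones, 3 of 38 genes beside 2.48% of all genes, and Pdk1 had all 4 below, 1 of 38 beside 1.15%. The median log2 fold change of the set was 0.04, as was that of all genes, with 20 genes above 0 and 18 below.

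For Slc16a3 the diabetic libraries averaged 233 ± 50.3 CPM and the normal ones 81.8 ± 51.1 CPM (SD, n = 4 each). The log2 fold change was 1.52 ± 0.44 (SE), the unadjusted edgeR p was 0.00585, and the difference ran from 1.17 without library 09 to 1.93 without library 10. With no filter on low counts, edgeR's adjusted p for it was 9.6e-06, higher in 4 of 4 diabetic libraries, a setting in which edgeR called 0.587% of all genes with a count and no other gene of the set. That fit shrank each gene's spread fully to the trend, so the wide spread of Slc16a3 itself carried no weight in it. The adjusted p was 0.110 in DESeq2, 0.472 in limma-voom and 0.999 with the other edgeR scalings. Eno3 had means of 51.2 ± 30.8 CPM and 16.2 ± 5.51 CPM (SD, n = 4 each) and a log2 fold change of 1.51 ± 0.47 (SE), with an unadjusted edgeR p of 0.00857. Library 13 held its highest value, and without it the log2 fold change was 1.17.

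Dld had a log2 fold change of 0.81 ± 0.34 (SE) with an unadjusted edgeR p of 0.0395, and Pkm2 one of 0.54 ± 0.23 (SE) with an unadjusted p of 0.0389. Both rested in good part on library 14: without it the log2 fold changes were 0.50 for Dld and 0.36 for Pkm2, and the diabetic and normal values of Pkm2 overlapped with it as well. Pdk1, the one gene with every diabetic value lower, had a log2 fold change of -0.43 ± 0.29 (SE) and an unadjusted edgeR p of 0.164, and of -0.27 without library 10. Of the 3 genes with the most counts, Ldha, at -0.14 ± 0.26 (SE), and Tpi1, at 0.16 ± 0.20 (SE), differed by less than their errors on the log2 scale, and Pgam1, at -0.38 ± 0.35 (SE), by little more than its error. The lactate exporter Slc16a1 was at 0.07 ± 0.19 (SE). Ldha's sign turned without library 13 (0.10), Tpi1's without library 14 (-0.07) and Slc16a1's without library 10 (-0.05).

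**Figure D3:**
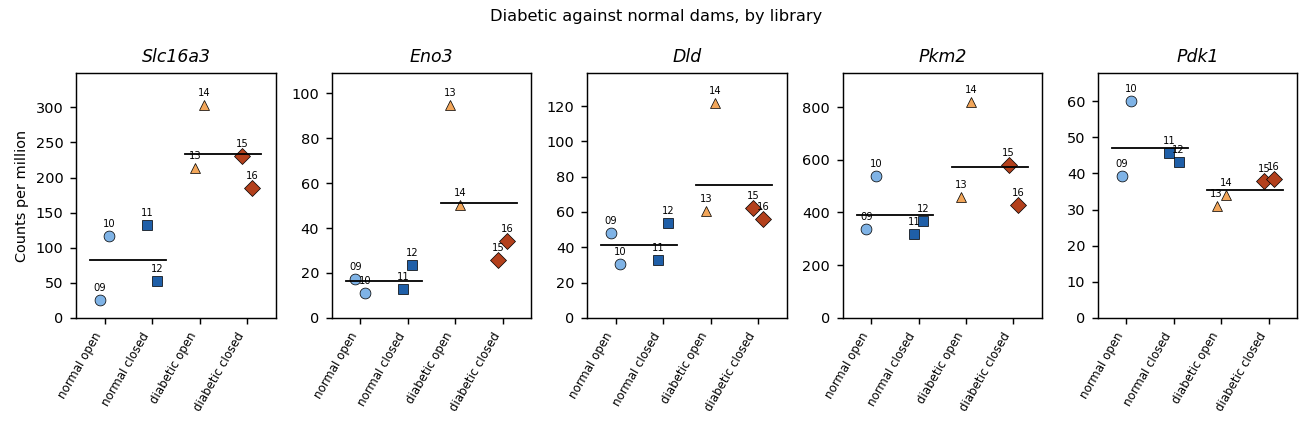
CPM (vertical axes from 0) of Slc16a3, Eno3, Dld, Pkm2 and Pdk1 in each library, numbered, by group, with a line at the mean of the 4 normal and of the 4 diabetic libraries. Slc16a3, Eno3 and Dld have all diabetic points above the normal ones, Pdk1 has them below, Pkm2 overlaps, and libraries 13 and 14 hold the highest points of the first 4 panels.

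The summed markers of several other cell types reached higher values in the diabetic than in the normal libraries, with ranges that overlapped for each, and their differences were not tested. Endothelial markers (8 of 8 with counts) summed to 76.2 to 341 CPM in the diabetic libraries and to 40.6 to 78.5 CPM in the normal ones. Of these, Kdr was at 0.178 CPM in normal library 11 and at 0 elsewhere, and Emcn had a lower mean with diabetic dams. Markers of paraxial mesoderm and mesenchyme (8 of 8) summed to 287 to 1566 CPM (diabetic) and 152 to 423 CPM (normal). Those of primitive blood (7 of 8, Hbb-y at 0) summed to 4.36 to 1010 CPM and 0.296 to 63.3 CPM, nearly all of it Hba-x. Heart markers reached 108 CPM, most of it Gata4, against 6.0 CPM. Surface ectoderm markers reached 330 CPM against 303 CPM, and both sums were highest in library 13. The part of all these markers in the Slc16a3, Eno3 and Dld values was not tested.

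The lactate transporters can also be read as a share within the pair, which does not depend on how libraries are scaled. Slc16a3 took 8.34%, 38.6%, 31.3% and 16.9% of the pair's counts in normal libraries 09 to 12, and 44.5%, 55.9%, 44.7% and 39.6% in diabetic libraries 13 to 16 (95% Wilson intervals at most 2.30 percentage points to either side, counting error only). The means were 46.2% ± 6.91 with diabetic and 23.8% ± 13.7 with normal dams (SD, n = 4 each), and the groups did not overlap. The share of Slc16a1 differed by -22.4 percentage points, for which a two-sided exact permutation test gave p = 0.0286, the smallest that 4 against 4 libraries allow, and an adjusted p of 0.171 over the 18 share tests, so the difference did not pass. In 4 of 4 diabetic libraries the share was on the same side.

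Among the enolases with counts, Eno3 held 93.4% ± 4.25 with diabetic and 69.5% ± 22.3 with normal dams (SD, n = 4 each, exact permutation p = 0.143, adjusted p = 0.429). Since Eno1 was listed at 0, this is a share of Eno2 and Eno3 only. The Pdk1 share of its kinase family was 52.7% ± 2.25 with diabetic and 67.6% ± 20.3 with normal dams (SD, n = 4 each, exact permutation p = 0.229), and library 10 had 95.3%. The shares of Hk2, Pfkl, Pfkfb3, Aldoa, Ldha and Pgm2 within their families had exact permutation p-values between 0.257 and 0.771 for the dam comparison.

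Closed against open tissue is the other axis of the design. Again 0 of 38 genes passed edgeR's test with the dam as a covariate (background 0.0%, smallest adjusted p in the set 1.00), and 3 genes, Ldhb, Pfkm and Pgm1, had an unadjusted p below 0.05, all higher in closed tissue, against 3.32% of all genes tested. Ldhb and Pdhb had all 4 closed libraries above all 4 open ones, 2 of 38 beside 1.68% of all, and Tpi1 had all 4 below, 1 of 38 beside 1.07%. Ldhb, Pgm1 and Pdhb passed the filter on low counts only through their closed libraries. Their direction was thus partly fixed in advance by that filter, and it adds no independent support. The median log2 fold change of the set was 0.09, beside 0.07 for all genes, with 21 genes above 0 and 17 below.

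Ldhb was the clearest of these. Its closed libraries held 60 and 73 counts (normal, 10.7 and 10.8 CPM) and 23 and 29 counts (diabetic, 4.56 and 4.05 CPM), 185 in all, and the 40827633 counts of the open libraries held none. A floor of 3 counts over the open libraries together stands for 0.0735 CPM. The pooled closed level of 7.53 CPM was 102-fold that floor, and 60.6-fold without open library 13, the deepest. These ratios leave out the counting error of the closed counts and the spread between closed libraries, so they are not lower limits. The unadjusted edgeR p was 0.00133, edgeR's adjusted p was 1.00, and DESeq2's adjusted p was 0.000969, higher in 4 of 4 closed libraries, where DESeq2 called 0.0764% of all genes and no other of the set. The adjusted p was 0.0542 in edgeR with no filter on low counts and 0.644 in limma-voom. A pattern of at least 20 counts in every closed library and 0 in every open one was met by 2 of 11779 genes (0.017%). Ldhb is among them. The limit was chosen after the values were seen and follows Ldhb's own counts, so this number only describes and is no test. The difference between the normal and diabetic closed libraries was -1.34 ± 1.84 (SE) on the log2 scale. Closed libraries had 11006 to 12924 genes with a count, at totals of 5041586 to 7167172 counts. Open libraries had 9920 to 11557 such genes, at totals of 5668054 to 16655583 counts. The part of this in the low counts of Ldhb, Pdhb and Pgm1 was not tested.

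Next to Ldha, the level of Ldhb was small: Ldha held 99.89% or more of the lactate dehydrogenase counts in every library, and 100% in the 4 open ones. The exact permutation p for this share was 0.0286, with an adjusted p of 0.171 over the 18 tests.

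Pdhb followed the same order at the edge of detection, with 7 to 16 counts in each closed library and, in the open ones, 16 counts in library 13 and none elsewhere, and its tag is shared. For Pfkm the closed libraries averaged 38.6 ± 11.2 CPM and the open ones 19.9 ± 13.2 CPM (SD, n = 4 each), with a difference of 1.19 ± 0.47 (SE) on the log2 scale and an unadjusted edgeR p of 0.0294, and the groups overlapped. Pgm1 had 14, 16 and 21 counts in 3 closed libraries, none in closed library 12 and 1 count in the open libraries together. For Tpi1 the averages were 2186 ± 162 CPM (closed) and 2947 ± 887 CPM (open, SD, n = 4 each), a difference of -0.37 ± 0.20 (SE) on the log2 scale, and of -0.15 without library 14.

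**Figure D4:**
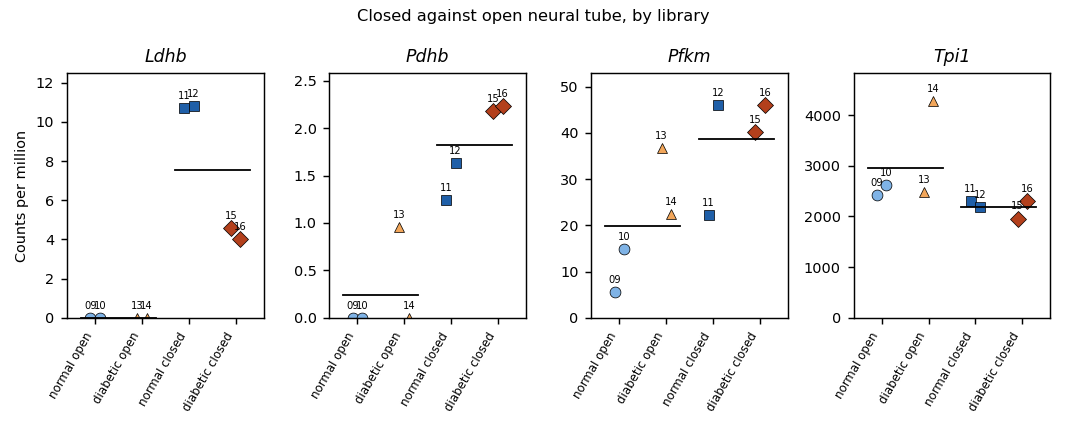
CPM (vertical axes from 0) of Ldhb, Pdhb, Pfkm and Tpi1 in each library, numbered, by group, with a line at the mean of the 4 open and of the 4 closed libraries. Ldhb is at 0 in every open library and between 4.05 and 10.8 CPM in the closed ones, and the high open mean of Tpi1 rests on library 14.

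For Aldoa, the share within the aldolases was 99.3% ± 0.508 in closed and 97.4% ± 1.27 in open tissue (SD, n = 4 each), without overlap (exact permutation p = 0.0286, adjusted p = 0.171). Its partner Aldoc has the tag that matches 48 other genes. The shares of Hk2 and Pfkl had p-values of 0.0857 and 0.171 by the exact permutation test, and those of Pfkfb3, Eno3, Slc16a1, Pdk1 and Pgm2 0.143 or more. Neural progenitor markers, mostly Lin28a by level, summed to 2523 to 3261 CPM in closed and 1744 to 3442 CPM in open tissue, so their ranges overlapped. Surface ectoderm markers (8 of 8 with counts) summed to 107 to 303 CPM in closed tissue and to 64.0, 67.5 and 105 CPM in 3 of the open libraries, all below the closed ones, but to 330 CPM in open library 13, where the keratin Krt18 gave 197 CPM. Of these 8, only the epithelial cadherin Cdh1 was higher in all 4 closed libraries (44.1 to 119 CPM) than in all 4 open ones (15.3 to 43.3 CPM). The gap was narrow, and 1.68% of all genes tested had such a separation. By mean, Epcam, Tcfap2a, Esrp1 and Trp63 were also higher in closed tissue, and Krt8, Krt18 and Grhl2 were higher in open tissue. The part of these markers in the Ldhb, Pfkm, Pgm1, Pdhb and Tpi1 values was not tested.

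**Figure D5:**
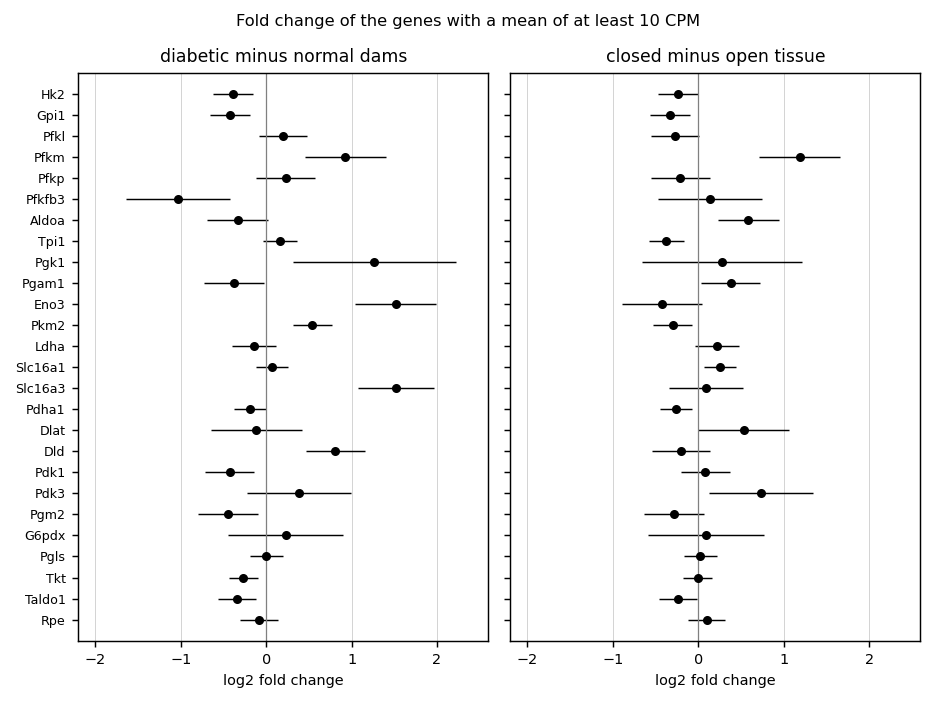
Log2 fold change (points) with its standard error (bars) from edgeR for the 26 genes with a mean of at least 10 CPM, for diabetic minus normal dams (left) and closed minus open tissue (right), in pathway order. Slc16a3 and Eno3 lie at 1.5 on the left with errors under 0.5, Pfkm lies at 1.19 on the right, and most other points are within 0.5 of 0.

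Within each tissue the design leaves 2 libraries against 2, and these differences share their libraries with the ones above. In open tissue, diabetic against normal dams, 0 of 38 genes passed edgeR's test (background 0.0%) and 5 had an unadjusted p below 0.05, beside 7.22% of all genes: Eno3 (2.33 ± 0.59 (SE)), Slc16a3 (1.88 ± 0.64 (SE)), Pfkm (1.55 ± 0.65 (SE)) and Dld (1.18 ± 0.49 (SE)) were higher on the log2 scale and Pfkfb3 (-2.05 ± 0.74 (SE)) was lower. DESeq2 gave Eno3 an adjusted p of 0.0256 there, higher in 2 of 2 diabetic open libraries, where it called 1.69% of all genes. The adjusted p for Eno3 there was 0.598 in edgeR and 0.307 in limma-voom. It was 0.0442 in edgeR with no filter on low counts, a fit in which the gene's own spread carried no weight. In closed tissue no gene of the set had an unadjusted p below 0.05, beside 1.17% of all (edgeR calls 0.0%), and the log2 fold changes of Slc16a3 and Eno3 were 1.15 ± 0.63 (SE) and 0.69 ± 0.56 (SE).

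Pfkfb3 was named from these differences after its values were seen. It gave 113 and 32.6 CPM in normal open, 59.8 and 17.8 in normal closed, 13.3 and 22.7 in diabetic open, and 32.9 and 45.6 in diabetic closed tissue, with library 09 far above the rest. The test of whether the dam difference itself differed between open and closed tissue called 0 of 38 genes (background 0.0%), and no gene of the set had an unadjusted p below 0.05, beside 3.74% of all. The smallest p-values there were 0.0667 for Eno3 and 0.0725 for Pfkfb3.

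Closed against open tissue was also compared within each dam, where Ldhb again entered the test only through its closed libraries. With normal dams, 0 genes passed (background 0.0%) and Ldhb and Pfkm had an unadjusted edgeR p below 0.05 (0.00874 and 0.0198), 2 of 38 beside 3.4% of all. With diabetic dams, 0 genes passed (background 0.0%) and Ldhb (0.0114) and Aldoa (0.0413) did, 2 of 38 beside 2.78%. The Aldoa difference there, 1.11 ± 0.47 (SE) on the log2 scale, includes the low library 13.

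Other genes of the surrounding metabolism were read from 8 lists with 99 genes, of which 94 are listed and 65 were tested. None passed edgeR's test in either comparison (background 0.0% in both). For diabetic against normal dams 35 of 65 were above 0, beside 52.7% of all genes tested, and 4 had an unadjusted edgeR p below 0.05, beside 4.55%. For closed against open tissue 29 of 65 were above 0, beside 55.5%, and 1 had such a p, beside 3.32%. Medians of the lists lay between -0.18 and 0.20 for the dams and between -0.56 and 0.23 for the regions, the lowest being that of a list with 2 tested genes.

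Bsg, the chaperone that carries MCT1 and MCT4 to the membrane, was the most abundant of these genes with a mean of 1864 CPM (1286 to 2318), and its relative Emb had a mean of 342 CPM (241 to 443). Of the citric acid cycle, Cs, the citrate synthase, had a mean of 547 CPM (457 to 597) and Sdha, a subunit of succinate dehydrogenase, a mean of 347 CPM (217 to 452). Glycogen genes included Gyg, the glycogenin that primes glycogen, with a mean of 143 CPM (65.5 to 196). Pygb, a glycogen phosphorylase, gave 131 and 143 CPM in normal open, 183 and 167 in normal closed, 65.1 and 94.9 in diabetic open, and 103 and 169.7 in diabetic closed tissue. Its log2 fold change was -0.59 ± 0.23 (SE) for the dams (unadjusted edgeR p 0.030) and 0.60 ± 0.23 (SE) for the regions (unadjusted p 0.0261), and the groups overlapped in both.

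Fh1, the fumarase, and Mlxipl, a glucose-sensing factor, had counts in 2 normal libraries each and none in the diabetic ones, at means of 1.24 and 1.34 CPM. Regulators were led by Mycn with a mean of 513 CPM (229 to 670.1) and Mlxip with a mean of 189 CPM (139.7 to 246). Of the tissue-restricted forms, the hexokinase-like Hkdc1 had a mean of 8.5 CPM. The remaining lists were led by Mgea5 (114 CPM) and Pgm3 (69.7 CPM) of hexosamine metabolism, Nadk (99.6 CPM) and Nampt (62 CPM) of NAD metabolism, and G6pc3 (92 CPM) and Pck2 (41.6 CPM) of gluconeogenesis, all as means over the 8 libraries.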

How the data were processed

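Per the labels' protocols, 7 ng of total RNA from laser-dissected neural tube went into each barcoded SOLiD SAGE library. The authors deposited whole-number counts of tags for each gene symbol in 1 file a library. The submitters' processing notes name mm9. The sources used here do not give the aligner, annotation, strand use or the handling of tags matching several genes. The rule for the 42 genes uses no measured value, but they and all lists were chosen with earlier results of these data known.

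Tests ran under R 4.3.3 using edgeR 4.0.16 (quasi-likelihood F test, Benjamini-Hochberg adjusted p below 0.05), DESeq2 1.42.0 and limma 3.58.1. filterByExpr (minimum count 10, minimum total 15) kept 11779 genes, and TMM factors ran from 0.975 to 1.04. Dam and region were tested in an additive model of all 8 libraries, simple differences and the interaction in a model of the 4 groups. Standard errors were derived from the F statistics. Fits were also run on simulated counts with known changes, and how many of those changes they recovered is not reported here. Per-library values are given for genes of the set with a mean of at least 100 CPM, an unadjusted p below 0.05, or groups of 4 libraries without overlap, and others by mean and range. Of each list of surrounding metabolism, the genes named are the 2 with the highest mean CPM and the one with the smallest unadjusted p below 0.05 for the dams or the regions. No replicate number occurs in 2 groups, so no pairing was fitted, and whether open and closed libraries shared embryos or litters is not known from these numbers. Alternatives were DESeq2, limma-voom, RLE scaling, library totals, no filter, other forms of the share test and leaving out each library. Of the surrounding metabolism, 2 genes that the rule would name are not reported here.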

Additional observations from a re-analysis of the deposited data

Results flagged for a closer look

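The highest and the lowest library of each arm of 4 were compared with the rest for the 22 genes given by library, over 87 arms with values that differ, and 7 stood far from the other 3. A rate of about 1 in 20 holds for independent groups of normally distributed values and cannot be applied here. The arms share libraries, and among the open libraries Pdhb and Pgm1 had counts in 1 library only, so their flags were fixed in advance. Library 14 was involved 3 times: Tpi1 at 4271 CPM against 2423 to 2618 in the other open libraries, Dld at 122 CPM against 56.2 to 62.1 in the other diabetic ones, and Tkt at 262 CPM against 209 to 214 in the other diabetic ones. Library 13 was involved with Tkt at 209 CPM against 258 to 268 in the other open libraries, and with Pdhb at 0.961 CPM where the other open libraries had 0. Pgm1 stood apart at 2.49 CPM in library 11 among the normal libraries and, with 1 count, at 0.0987 CPM in library 09 among the open ones.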

How the results depend on the processing

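No gene of the set was called by edgeR in any of the 7 comparisons, with any library left out, under RLE scaling or library totals, or by limma-voom. The exceptions were DESeq2 (Ldhb for the regions, Eno3 for the dams in open tissue) and edgeR with no filter on low counts (Slc16a3 for the dams, and Slc16a3 and Eno3 for the dams in open tissue, adjusted p 0.000355 and 0.0442). The unfiltered fit shrank each gene's spread fully to the trend (infinite prior degrees of freedom, against 5.83 with the filter). Over all genes, DESeq2 called 37 for the dams, 9 for the regions, 199 for the dams in open and 2 in closed tissue, 30 and 47 for the regions with normal and diabetic dams, and 22 for the interaction, and edgeR with no filter called 89, 29, 138, 11, 22, 41 and 23 in the same order. limma-voom called 1 gene each for the dams in open tissue, the regions with diabetic dams and the interaction. With 1 library left out, edgeR called 0 to 2, 0 to 3, 0 to 61 (without library 14), 0 to 3, 0 to 18 (without 09), 0 to 21 (without 14) and 0 to 9 (without 14) genes. The cause of these differences was not tested.

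Of 44 fold changes of single genes, 4 turned in sign under another tool, scaling or filter, all near 0 or at few counts: Pgm1 for the dams to 0.99 in limma-voom, Pgls for the dams to 0.0153 with library totals and 0.0015 with no filter, Pgls for the regions to -0.0075 in DESeq2, -0.0078 with RLE and -0.0224 with totals, and Tkt for the regions to 0.0103 in limma-voom. With 1 library left out, 14 turned: for the dams Pfkl (-0.0627 to 0.39), Aldoa (-0.60 to 0.0277), Tpi1 (-0.0653 to 0.27), Ldha (-0.35 to 0.10), Slc16a1 (-0.0486 to 0.21), Pgm1 (-0.99 to 1.08), Pgls (-0.14 to 0.10) and Rpe (-0.26 to 0.0667), and for the regions Ldha (-0.0246 to 0.43), Slc16a3 (-0.30 to 0.49), Dld (-0.44 to 0.11), Pgls (-0.0769 to 0.16), Tkt (-0.0658 to 0.0795) and Rpe (-0.0485 to 0.28). Of 18 family shares, that of Pfkfb3 for the regions turned to -3.94 percentage points over summed counts, and 6 turned with a library left out: Hk2 (-3.62 to 0.278), Pfkl (-4.55 to 1.12) and Pfkfb3 (-12.6 to 0.704) for the dams, and Pfkfb3 (-5.34 to 9.21), Slc16a1 (-2.63 to 13.2) and Pdk1 (-13.7 to 1.57) for the regions. No share passed adjustment in any form of the test. No pairing could be fitted because no replicate number occurs in 2 groups. These numbers run on from library to library, so they do not show whether open and closed libraries shared embryos or litters. The tests treat the libraries as independent. Genes under 10 CPM rest on few counts, and 2 libraries a group limit every simple difference.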
